A study of Mus musculus with 5 samples.

Results

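Aquaporins are membrane channels for water and, in some members, glycerol, and the vasopressin type 2 receptor sets how much of the water channel Aqp2 reaches the surface of collecting duct cells. To investigate where these genes were read in the mouse kidney and whether their levels differed over injury and repair, 8 genes were taken by symbol from the gene lists of the deposited tables: Aqp1, Aqp2, Aqp3, Aqp4, Aqp6, Aqp7, Aqp11 and Avpr2. All 8 were present, of 32285 genes in each library. The samples were kidneys of male wild-type C57BL/6 mice, 8 to 10 weeks old, and injury was induced with aristolochic acid I (AAI), a plant toxin taken up by the proximal tubule. Mice of the AKI phase (week 2, n = 2 libraries) had received intraperitoneal AAI at 3 mg/kg every 3 days over 2 weeks, mice of the CKD phase (week 4, n = 2) had received the same course and then 2 weeks without AAI, and the control (week 0, n = 1) received vehicle. Kidneys were dissociated with collagenase IV and DNase I and passed through a strainer, so the cells read were those that survive this step. The labels do not state how many animals went into a library, and p-values therefore measure only the spread between libraries.

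In the kidney, Aqp1 is the constitutive water channel of the proximal tubule, the thin descending limb and the descending vasa recta. In principal cells of the connecting tubule and collecting duct, vasopressin binds Avpr2, which raises cAMP through the stimulatory G protein and adenylyl cyclase; protein kinase A then moves Aqp2 to the apical membrane and raises its transcription. Aqp3 and Aqp4 form the basolateral exit path for this water. Aqp6 is an intracellular channel of acid-secreting intercalated cells that passes anions, Aqp7 carries glycerol in the proximal tubule, and Aqp11 lies in membranes of the endoplasmic reticulum.

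The 5 libraries held 72896 barcodes, of which 53718 were kept as cells, 8496 in the control, 10199 and 9910 in AKI 1 and AKI 2, and 16330 and 8783 in CKD 1 and CKD 2. Kept cells held 55299269 to 77838441 UMIs per library. Levels are given below as UMIs of a gene per 10000 UMIs of all genes in the cells of a class, and classes are named by marker genes as PT-like, thin limb-like, TAL-like, DCT-like, CNT-like, PC-like, IC-like and EC-like. In the proximal class the S1 and S2 marker Slc34a1, a phosphate transporter, lay between 26.1 and 29.7 UMIs per 10000 in all libraries. Slc7a13, a transporter and one of the listed markers of the last proximal segment, S3, was at or below 0.02. The S3 marker set as a whole came second to the S1 and S2 set in several PT-like clusters. Its mean standard score was 2.74 against 3.58, 1.91 against 2.97 and 1.01 against 2.18 in them. No PT-like cluster took the S3 name, and the part of S3 cells in this class was not settled. CKD 1 stood apart: its PC-like cells had a median of 2809 UMIs against 10345 to 22365 in the other libraries, and 1 of 2 PC-like clusters (87 of 87 cells), 2 of 4 IC-like clusters (268 of 274 and 102 of 103 cells) and 1 PT-like cluster (1187 of 1233 cells) came almost wholly from it. Values that rest on the CKD pair are therefore given per library. The control shared 132 barcodes with CKD 2, of which 99 had over 20 times more UMIs in CKD 2. Of the 413 control PC-like cells 0 carried such a barcode, and of the 1073 PT-like cells 11 did.

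By the GENCODE vM39 annotation of GRCm39, the build that the submitters' notes name, the members form 2 pairs of neighbours and 4 single genes. Aqp2 (chr15:99476936-99485016) and Aqp6 (chr15:99499075-99503358) are neighbours separated by 14.1 kb, with Aqp5 (chr15:99488532-99492710) between them, and Aqp7 (chr4:41032835-41048211) and Aqp3 (chr4:41092722-41098183) are separated by 44.5 kb. Aqp1 lies at chr6:55313068-55325540, Aqp11 at chr7:97373213-97387524 and Avpr2 at chrX:72935708-72939108. The start regions below come from RefSeq on the earlier build GRCm38.p6, so their coordinates are not comparable with these. RefSeq start regions matched 7 of the 8 members, all but Aqp4. The 250 bases before the start are printed for the 3 members read mainly in principal cells and, as the neighbour of Aqp2 that is read in another cell type, for Aqp6, each 5′ to 3′ on the strand of the gene. Capitals mark the matches to 2 motifs searched on both strands. One was TGACG, the core of the cAMP response element. The other was a site of GATA factors, AGATAA, which does not overlap it. Both lie on the opposite strand of Aqp2, so that the first reads CGTCA here. The second, the GATA match, reads TTATCT.
Aqp2, chr15:99578806-99579055, plus strand: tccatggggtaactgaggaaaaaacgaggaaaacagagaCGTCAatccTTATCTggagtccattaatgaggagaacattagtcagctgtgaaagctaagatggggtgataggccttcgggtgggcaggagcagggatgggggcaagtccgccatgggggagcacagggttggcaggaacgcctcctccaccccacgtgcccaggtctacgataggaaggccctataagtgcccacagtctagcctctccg
Aqp3, chr4:41098184-41098433, minus strand: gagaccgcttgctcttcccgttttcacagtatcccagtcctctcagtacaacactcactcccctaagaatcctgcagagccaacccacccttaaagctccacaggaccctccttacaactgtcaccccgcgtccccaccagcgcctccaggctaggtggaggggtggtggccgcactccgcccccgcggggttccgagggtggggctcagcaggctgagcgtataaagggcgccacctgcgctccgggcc
Avpr2, chrX:73891852-73892101, plus strand: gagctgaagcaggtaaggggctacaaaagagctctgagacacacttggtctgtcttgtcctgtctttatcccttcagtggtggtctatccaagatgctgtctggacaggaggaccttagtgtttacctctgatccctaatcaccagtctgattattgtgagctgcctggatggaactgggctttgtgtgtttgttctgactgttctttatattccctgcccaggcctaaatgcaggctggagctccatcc
Aqp6, chr15:99600950-99601199, plus strand: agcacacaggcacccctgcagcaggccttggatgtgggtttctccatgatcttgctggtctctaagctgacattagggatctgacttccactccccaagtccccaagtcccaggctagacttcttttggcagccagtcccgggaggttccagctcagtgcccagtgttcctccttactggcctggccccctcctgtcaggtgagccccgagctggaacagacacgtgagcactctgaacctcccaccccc
The Aqp2 matches start 211 and 202 bases before the start of the gene. Of all 32851 RefSeq start regions of this length, 17.8% held the first motif, 9.99% the second and 1.18% both. Of the other members, Aqp7 held AGATAA in 1 of its 2 start regions, 132 bases before the start. These are matches of letters and were not tested for binding.

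Each member was read highest in 1 or 2 classes, by a margin that differed between members. Aqp2, Aqp4 and Avpr2 were highest in PC-like cells, Aqp3 in PC-like cells, Aqp6 in IC-like cells, Aqp7 in PT-like cells, Aqp1 in arterial and vasa recta EC-like cells and thin limb-like cells, and Aqp11 in arterial and vasa recta EC-like cells and PT-like cells. Of all Aqp4 UMIs of a library, 71.5% to 87.0% came from PC-like cells, and of all Aqp6 UMIs 67.2% to 96.8% came from IC-like cells. The lowest Aqp6 share was that of CKD 1. For Aqp1 the libraries of the 2 leading classes overlapped (41.9 to 51.2 UMIs per 10000 in arterial and vasa recta EC-like and 22.2 to 48.5 in thin limb-like cells), and for Aqp3 those of CNT-like (5.58 to 6.17) and IC-like cells (2.61 to 5.93) did, below PC-like cells (13.6 to 24.4). Avpr2 was less confined, with 48.5% to 64.9% of its UMIs in PC-like cells and 5.49% to 31.0% in IC-like cells. T lymphocyte-like cells of the same library were taken as the reference for free RNA, although T cells can carry Aqp3 of their own: 0.03 to 0.15 UMIs per 10000 for Aqp1, 0.03 to 0.38 for Aqp2, 0.02 to 0.23 for Aqp3 and at most 0.06 for each of the others.

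**Figure D1:**
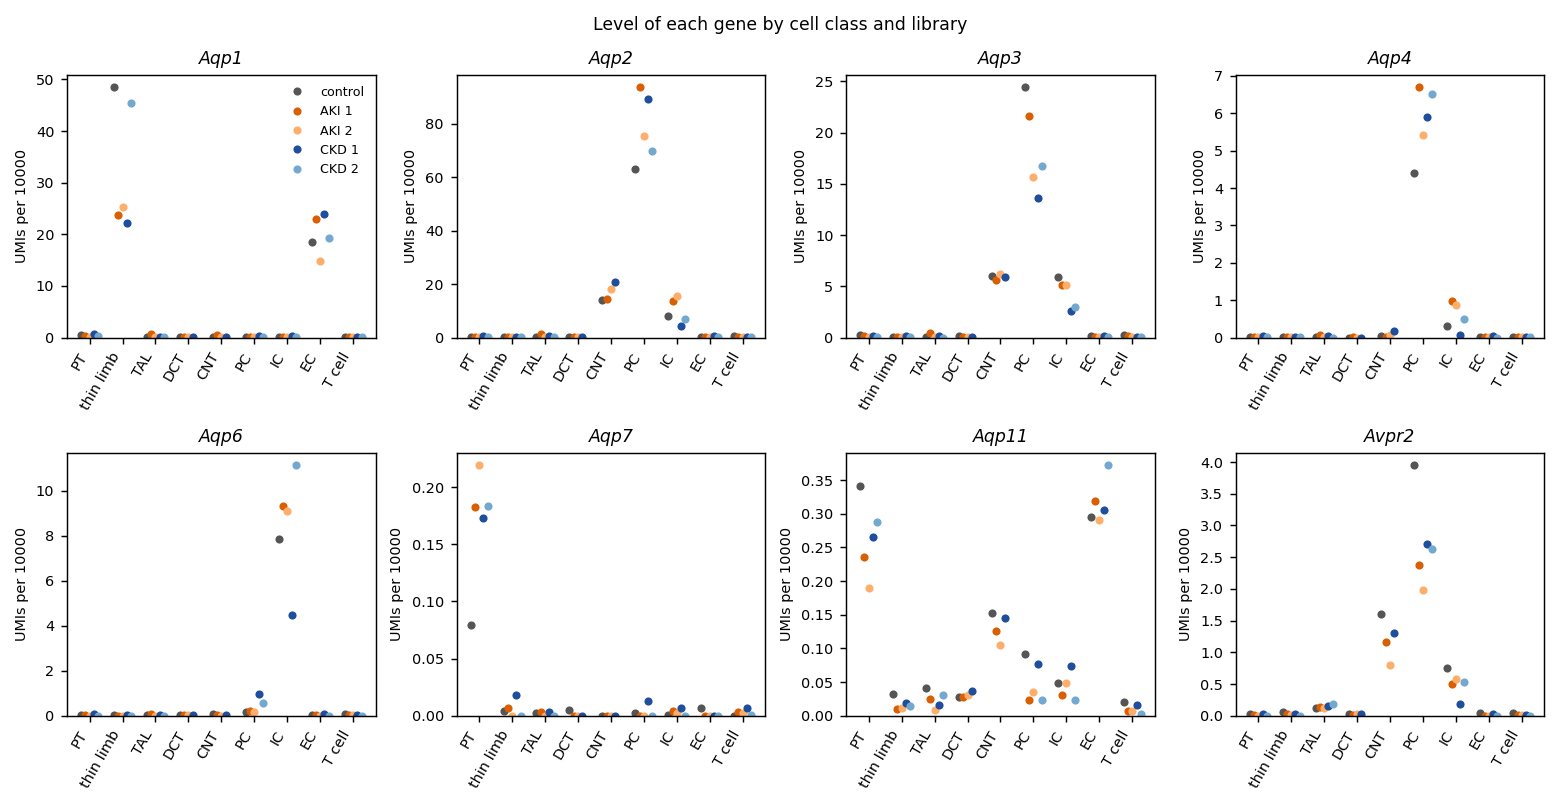
Level of each of the 8 genes (UMIs per 10000 UMIs of the class, linear axes of different height) by class of kidney cell, 1 point per library and class with at least 20 cells. PC-like cells held 63.3 to 93.8 of Aqp2 and thin limb-like cells 22.2 to 48.5 of Aqp1, while T lymphocyte-like cells held at most 0.38 of any of the 8.

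Aqp1 was read in the thin limb and in the vessels that run beside it. In thin limb-like cells its level was 48.5 UMIs per 10000 in the control, 23.7 and 25.2 in AKI 1 and AKI 2, and 22.2 and 45.5 in CKD 1 and CKD 2. Both AKI libraries and CKD 1 lay between 22.2 and 25.2, whereas CKD 2 lay near the control, so the CKD pair spanned nearly the whole range. The log2 difference was -0.98 between AKI and control (SE 0.38, edgeR quasi-likelihood test, adjusted p = 0.293) and 0.53 between CKD and AKI (SE 0.32, adjusted p = 0.745), and neither passed the threshold of 0.05. After each cell was thinned to 1000 UMIs, at least 1 Aqp1 UMI was seen in 70.0% of control thin limb-like cells, in 44.6% and 45.1% of AKI cells and in 35.1% and 58.6% of CKD cells. Without thinning the shares ran from 44.3% to 74.8%. T lymphocyte-like cells thinned in the same way gave 0.21% to 1.80% and unthinned 2.55% to 5.67%. Median depth was 2722 to 21206 UMIs in thin limb-like cells and 3296 to 5683 in T lymphocyte-like cells.

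The thin limb-like class held cells with and without Aqp1, and its make-up differed between libraries. When the 685 cells were clustered again, a choice made after seeing the data, sub-cluster 1 (116 cells) held 69.1 UMIs per 10000 of Aqp1 and sub-cluster 3 (70 cells), which also carried Fst, a secreted activin inhibitor, at 36.9, held 47.6. In sub-cluster 4 (69 cells) Aqp1 was 0.16, whereas Slc14a2, the urea transporter known from the descending thin limb of short loops and the inner medullary collecting duct, reached 73.2 against 5.75 to 7.34 in sub-clusters 1 to 3. Water channel and urea transporter were thus highest in separate groups of cells. Sub-cluster 1 made up 40.6% of control and 40.6% of CKD 2 thin limb-like cells, but 21.6% and 17.6% of those in AKI 1 and AKI 2 and 1.64% of those in CKD 1. Within sub-cluster 1 Aqp1 was 84.8 in the control (58 cells), 57.4 and 58.9 in AKI 1 and AKI 2 (21 and 19 cells) and 76.7 in CKD 2 (13 cells). CKD 1 had 5 cells there and gave no value. In sub-cluster 3 it was 53.3 in the control, 37.6 and 38.8 in the AKI libraries and 57.9 in CKD 1, so the AKI libraries were the lowest in both. Other sub-clusters did not all share this order: in sub-cluster 5 (66 cells) Aqp1 was 55.1 in AKI 2 and 27.7 in CKD 1, and in sub-cluster 2 (96 cells) 0.40 in the control, 2.88 and 1.53 in AKI and 0.58 in CKD 1. In sub-cluster 4 Slc14a2 was 118.3 in the control, 47.1 and 46.5 in the AKI libraries and 85.1 in CKD 1. In sub-clusters 1 and 3, both rich in Aqp1, it was lowest in the control, at 0.57 against 13.2 and 11.5 in AKI and 5.26 in CKD 2 in sub-cluster 1, and at 0.00 against 7.16, 7.71 and 9.42 in AKI 1, AKI 2 and CKD 1 in sub-cluster 3. Levels within sub-clusters are descriptions, without a test.

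**Figure D2:**
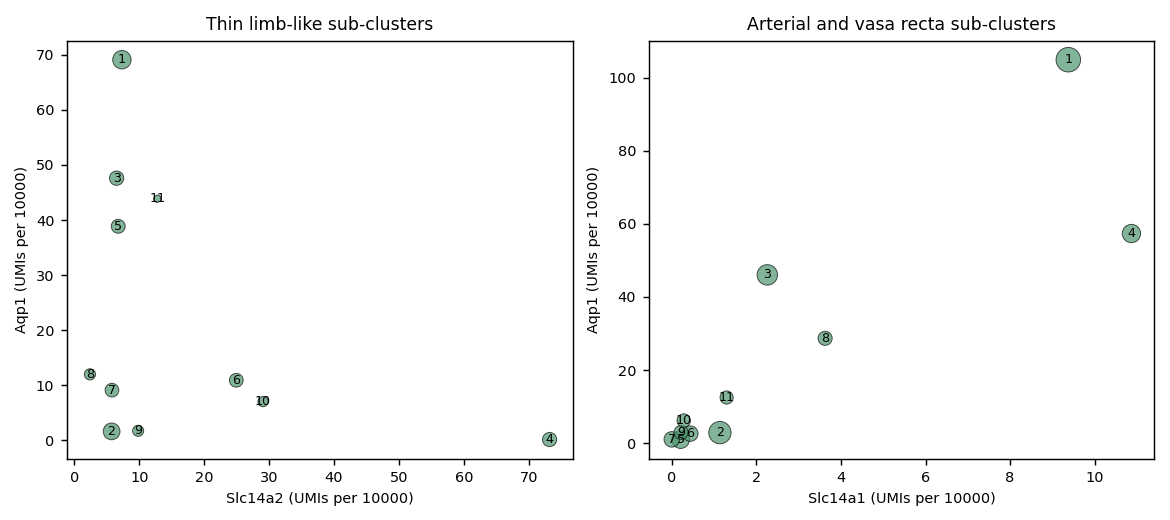
Level of Aqp1 against that of a urea transporter (both in UMIs per 10000 UMIs) in sub-clusters of thin limb-like cells (Slc14a2, left) and of arterial and vasa recta EC-like cells (Slc14a1, right), over all libraries; each numbered circle is a sub-cluster and its area grows with the number of cells. In the thin limb Aqp1 was 69.1 in sub-cluster 1 and 0.16 in sub-cluster 4, where Slc14a2 was 73.2, whereas in vessels sub-cluster 1 was high in both (104.9 and 9.38).

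In endothelium Aqp1 was read in one branch of the vasculature far above the other. Arterial and vasa recta EC-like cells held 47.7, 47.4, 45.5, 41.9 and 51.2 UMIs per 10000 in control, AKI 1, AKI 2, CKD 1 and CKD 2, while peritubular EC-like cells held 0.03 to 0.60, from within the range of T lymphocyte-like cells to above it. The 5 arterial and vasa recta values lay within 41.9 to 51.2, the control among them. Within this group, sub-cluster 1 (205 cells) carried Slc14a1, the urea transporter known from descending vasa recta and red cells, at 9.38 and Aqp1 at 104.9. Sub-cluster 7 (82 cells), with no Slc14a1 UMI, held Aqp1 at 1.05. Arterial markers were read in both, with the connexin Gja5 at 2.43 in sub-cluster 1 and 2.69 in sub-cluster 7, Cldn5 at 24.8 and 24.6, and Sox17 at 10.7 and 5.25. Hbb-bs, a haemoglobin chain and marker of red cells, was 0.00 in both. Sub-cluster 4 (115 cells) held more Slc14a1 than sub-cluster 1, at 10.9, with less Aqp1, at 57.4. Hbb-bs there was 2.83 over all libraries and 7.63 in AKI 1. By library Aqp1 in sub-cluster 1 was 116.6 in the control, 91.8 and 100.1 in the AKI libraries and 108.1 and 100.3 in the CKD libraries. EC-like cells pool this group with peritubular cells, and its share of them was 20.5% in the control, 28.5% and 23.9% in AKI, and 61.6% and 26.3% in CKD 1 and CKD 2, so pooled values of Aqp1 and Aqp11 were taken over a different mix of the 2 groups in each library. Not all cells so named carried arterial markers. Sub-clusters 2 and 5 (170 and 108 cells) held Cldn5 at 1.09 and 0.88 and the peritubular marker Plvap at 7.50 and 17.0. They made up 22.6% and 11.9% of the group in CKD 1, against 9.83% and 5.42% in the control. The 61.6% of CKD 1 is thus a share by cluster name. Over all EC-like cells the log2 difference was 0.10 between AKI and control (SE 0.29, edgeR, adjusted p = 0.914) and 0.25 between CKD and AKI (SE 0.24, adjusted p = 0.930). The first of these turned to -0.72 in cells with at least 5000 UMIs and to -0.27 without AKI 1.

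Proximal tubule, a known site of Aqp1, gave few Aqp1 UMIs here. PT-like cells held 0.41 UMIs per 10000 in the control, 0.34 and 0.12 in AKI 1 and AKI 2, and 0.67 and 0.32 in CKD 1 and CKD 2 against 0.03 to 0.15 in T lymphocyte-like cells. Between AKI and control the log2 difference was -0.93 (SE 0.58, edgeR, adjusted p = 0.341). Between CKD and AKI it was 1.19 (adjusted p = 0.363), 1.61 without CKD 2 (adjusted p = 0.0430) and 0.48 without CKD 1 (adjusted p = 0.711). The part of free RNA in these values was not tested.

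Avpr2, the receptor at the head of the pathway, was read in PC-like cells at 3.95 UMIs per 10000 in the control, 2.38 and 1.98 in AKI 1 and AKI 2, and 2.71 and 2.63 in CKD 1 and CKD 2. The control was the highest library and both AKI libraries were the lowest. The log2 difference between AKI and control was -0.80 (SE 0.20) with an adjusted p of 0.124 in the edgeR test, and that between CKD and AKI was 0.34 (SE 0.17, adjusted p = 0.822). The first comparison rested on single libraries: its adjusted p was 0.00609 without CKD 1 and 0.000894 without CKD 2, but 0.545 without AKI 1 and 0.793 without AKI 2, with a log2 difference of -0.65 to -0.94 in these 4 fits. Restricted to cells with at least 5000 UMIs, a choice made after seeing the data, it was -0.76 (adjusted p = 0.0361). Thinned to 1000 UMIs, 34.6% of control PC-like cells held an Avpr2 UMI, against 19.3% and 13.1% in AKI 1 and AKI 2 and 17.6% and 31.2% in CKD 1 and CKD 2. Without thinning the shares were 92.5%, 89.9%, 82.1%, 44.2% and 96.9%, and in thinned T lymphocyte-like cells 0.08% to 0.70%. The low unthinned share of CKD 1 went with its median of 2809 UMIs per PC-like cell.

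Outside principal cells, Avpr2 was lower in each further class of the distal nephron. CNT-like cells held 1.60, 1.16, 0.80 and 1.30 UMIs per 10000 in control, AKI 1, AKI 2 and CKD 1, IC-like cells 0.75, 0.50, 0.58, 0.19 and 0.54 in the 5 libraries, TAL-like cells 0.12 to 0.19, and DCT-like cells 0.02 to 0.03 where there were at least 20 cells. The TAL-like values, from 18 to 55 UMIs per library, were above the 0.004 to 0.04 in T lymphocyte-like cells and did not differ beyond their error between phases (log2 difference -0.05 between AKI and control, SE 0.31, edgeR, adjusted p = 0.937, and 1.34 with a mitochondrial limit of 15%). CKD 2 had 15 CNT-like and 19 DCT-like cells, under the minimum of 20, and these classes were not tested.

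Aqp2, the water channel under vasopressin control, was read in PC-like cells at 63.3 UMIs per 10000 in the control, 93.8 and 75.7 in AKI 1 and AKI 2, and 89.2 and 70.0 in CKD 1 and CKD 2. All 4 AAI libraries lay above the control, and the spread within each pair was larger than the distance of its lower library from the control. The log2 difference was 0.48 between AKI and control (SE 0.24, edgeR, adjusted p = 0.455) and -0.04 between CKD and AKI (SE 0.19, adjusted p = 0.999). Over the whole class, receptor and channel lay on opposite sides of the control, although neither difference passed the test. Whole-class values were taken over a different mix of PC-like sub-clusters in each library. Sub-cluster 2, described below and lower in Aqp2 and Aqp4 than sub-cluster 1, made up 45.5% of control and 13.8% to 36.9% of other PC-like cells. In sub-cluster 1 Aqp2 was 81.9 in the control and 82.4 in CKD 2. The part of this mix was not tested. Aqp3, the basolateral exit channel, was 24.4 in the control, 21.6 and 15.7 in AKI, and 13.6 and 16.7 in CKD. The control was again the extreme, here the highest, and the log2 differences were -0.33 (SE 0.22, adjusted p = 0.611) and -0.26 (SE 0.19, adjusted p = 0.873). Aqp4, the other exit channel, was 4.40 in the control, 6.70 and 5.42 in AKI, and 5.90 and 6.53 in CKD, with a log2 difference of 0.52 between AKI and control (SE 0.21, adjusted p = 0.330) and 0.08 between CKD and AKI (SE 0.17, adjusted p = 0.972). Thinned to 1000 UMIs, 94.0% to 100% of PC-like cells held an Aqp2 UMI, 58.1% to 87.2% an Aqp3 UMI and 26.9% to 42.9% an Aqp4 UMI. In thinned T lymphocyte-like cells these shares were 0.50% to 4.19%, 0.35% to 2.10% and 0.04% to 0.14%.

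Aqp4 differed between the 2 largest of the 8 sub-clusters of PC-like cells. Sub-cluster 1 (363 cells) carried the collecting duct marker Fxyd4, a regulator of the sodium pump, at 61.1 and the connecting tubule calcium binder Calb1 at 2.59, and sub-cluster 2 (327 cells) carried Fxyd4 at 26.6 and Calb1 at 18.7. In sub-cluster 1 Aqp2 was 99.8 and Aqp4 8.73 UMIs per 10000, and in sub-cluster 2 they were 51.8 and 1.34, while Avpr2 differed less, at 3.39 against 2.50. The clusters were formed on other genes, with all aquaporins and Avpr2 left out. Of these 3, Aqp4 differed most between the Calb1-low and the Calb1-high group. The order did not run along Calb1 in all sub-clusters: sub-cluster 8 (29 cells) held Aqp4 at 0.50 with Calb1 at 3.78, and sub-cluster 7 (38 cells) at 4.49 with Calb1 at 7.50. Within the Calb1-high group Aqp4 was 0.38 in the control (exact 95% Poisson interval 0.30 to 0.47, counting error only) and 1.91, 2.23 and 2.59 in AKI 1, AKI 2 and CKD 1. In the Calb1-low group it lay at 7.80 to 10.1 in the 5 libraries, the control at 7.84 among them. Aqp3 in the Calb1-high group was 22.3 in the control and 12, 9.82 and 11.3 in AKI 1, AKI 2 and CKD 1, whereas in the Calb1-low group it was 25 in the control, 26.1 and 22.8 in AKI, and 19.1 and 19.6 in CKD. The control thus stood apart from the AAI libraries in the Calb1-high group for both exit channels, in opposite directions. Aqp2 there was also lowest in the control, at 40.0 against 57.0, 61.0 and 72.4 in AKI 1, AKI 2 and CKD 1. In the Calb1-low group Aqp2 was 81.9 in the control, 116.7 and 96.1 in AKI, and 124.7 and 82.4 in CKD. Avpr2 was highest in the control in both groups, at 4.42 (Calb1-low) and 3.15 (Calb1-high). Its AKI values were 2.76 and 1.98 in the first and 1.71 and 1.74 in the second. Smaller sub-clusters differed: Avpr2 in control and CKD 1 was 6.16 and 1.61 in sub-cluster 3, but 6.27 and 7.45 in sub-cluster 7. CKD 2 had 6 cells in the Calb1-high group and gave no value there. The Calb1-high group made up 45.5% of control, 30.3% and 36.9% of AKI, and 13.8% and 18.8% of CKD PC-like cells.

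**Figure D3:**
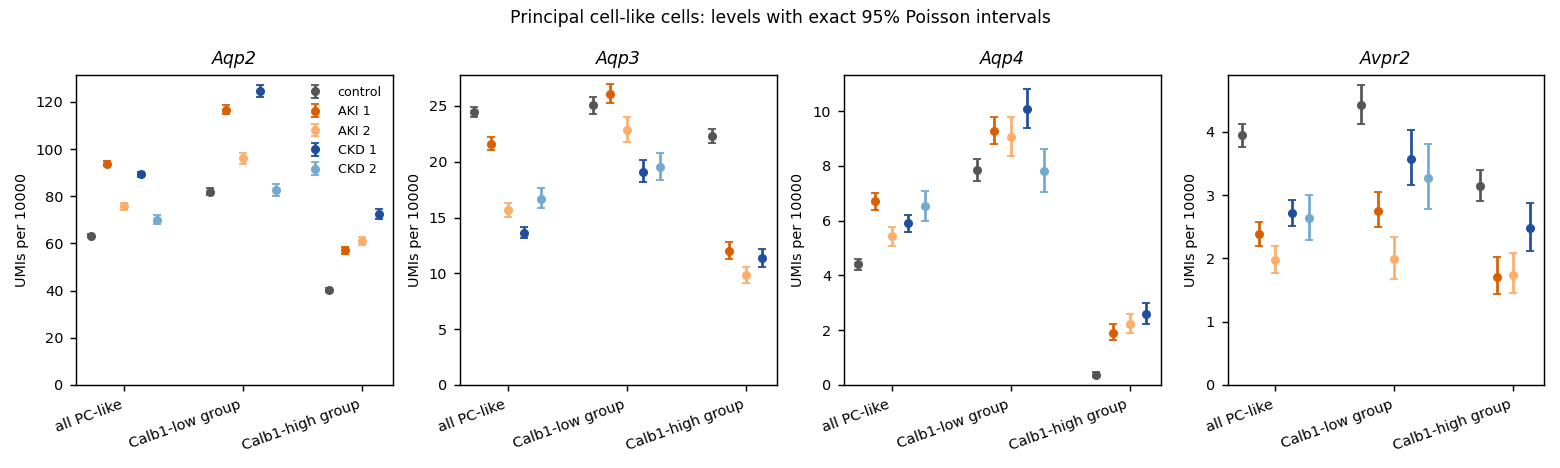
Levels of Aqp2, Aqp3, Aqp4 and Avpr2 (UMIs per 10000 UMIs) by library in all PC-like cells and in their Calb1-low and Calb1-high sub-clusters, with bars of the exact 95% Poisson interval, which covers counting error only. Aqp4 in the Calb1-high group was 0.38 in the control and 1.91 to 2.59 in AKI 1, AKI 2 and CKD 1; CKD 2 had too few cells there.

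Aqp2 and Aqp3 extended into CNT-like and IC-like cells. CNT-like cells held 14.2, 14.2, 18.1 and 21.0 UMIs per 10000 of Aqp2 in control, AKI 1, AKI 2 and CKD 1, and 5.58 to 6.17 of Aqp3. Aqp4 in the same cells was low, at 0.02 to 0.17, from within the range of T lymphocyte-like cells to above it. IC-like cells held Aqp2 at 8.19 in the control, 13.7 and 15.4 in AKI, and 4.48 and 6.89 in CKD, and Aqp3 at 5.93 in the control, 5.15 and 5.14 in AKI, and 2.61 and 3.03 in CKD. For both genes the 2 CKD libraries lay below the 2 AKI libraries. Between CKD and AKI the log2 difference was -1.27 for Aqp2 (SE 0.20) and -0.77 for Aqp3 (SE 0.15), each with an adjusted p of 0.556 in the edgeR test, a comparison in which 0 of 12188 genes passed, with 1083 at an unadjusted p under 0.05 and 18 called by DESeq2. DESeq2 gave Aqp2 an adjusted p of 4.2e-06 and Aqp3 one of 0.00747. Without CKD 2, which leaves CKD 1 alone, the log2 difference was -1.46 for Aqp2 and -0.74 for Aqp3. Of principal cell markers in the same IC-like cells, Fxyd4 was 5.62, 8.89, 8.99, 1.54 and 6.69 in control, AKI 1, AKI 2, CKD 1 and CKD 2. Hsd11b2, which protects the mineralocorticoid receptor from glucocorticoids, was 14.5, 15.2, 15, 5.36 and 9.24. For both markers, too, the CKD libraries lay below the AKI libraries. Against the control they did not follow Aqp2: Fxyd4 in CKD 2 lay above it, and Hsd11b2 in AKI was near it. Sub-cluster 6 of the IC-like cells (119 cells) held Aqp2 at 39.9 together with Fxyd4 at 26.3, Hsd11b2 at 28.6, Slc4a1, the anion exchanger of acid-secreting cells, at 5.59 and Aqp6 at 17.9. Sub-cluster 6 cells had a median of 24983 UMIs, against 14735 to 15489 in sub-clusters 5 and 8, which carried Slc4a1 with little Aqp2 (0.78 and 0.37). Whether doublets of principal and intercalated cells account for sub-cluster 6 was not tested.

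Aqp6 followed the acid-secreting intercalated cells. In IC-like cells its level was 7.85 UMIs per 10000 in the control, 9.35 and 9.09 in AKI, and 4.49 and 11.1 in CKD 1 and CKD 2. The CKD pair held both the lowest and the highest value, and the log2 differences were 0.11 between AKI and control (SE 0.42, edgeR, adjusted p = 0.932) and -0.17 between CKD and AKI (SE 0.34, adjusted p = 0.886). Without CKD 2 the latter was -0.80 and without CKD 1 it was 0.29. The mix of named IC-like clusters differed between libraries. The cluster named for acid-secreting cells held 551 of 676 control and 77 of 493 CKD 1 cells. In AKI 1, AKI 2 and CKD 2 it held 150 of 259, 116 of 147 and 60 of 90. Its score was 3.13, against 3.11 for base-secreting cells. The part of this mix in the Aqp6 values was not tested. Sub-clusters 5 and 8 (131 and 81 cells), with Slc4a1 at 8.07 and 9.57, held Aqp6 at 24.1 and 22.9. Sub-cluster 3 (222 cells), with the base-secreting exchanger pendrin, Slc26a4, at 14.9, held it at 3.06, and sub-cluster 10 (56 cells), with Slc26a4 at 20.7, at 0.31. In sub-cluster 5 Aqp6 was 36.8 in the control (63 cells), 21.1 and 18.3 in AKI (19 and 19 cells), and 6.39 and 9.17 in CKD (16 and 14 cells). In this sub-cluster the 3 phases did not overlap and were ordered control, AKI, CKD, without a test. In sub-cluster 8 the order was the same but closer, at 25.3 in the control, 22.8 in AKI 1 and 19.2 in CKD 1. It was not the order of the whole class, where CKD 2, at 11.1, was the highest library and both AKI libraries lay above the control. Other sub-clusters, among them 1, 3 and 6, also had enough cells in the control, both AKI libraries and CKD 1. Their values by library are not given here, so the order is shown for sub-clusters 5 and 8 only.

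**Figure D4:**
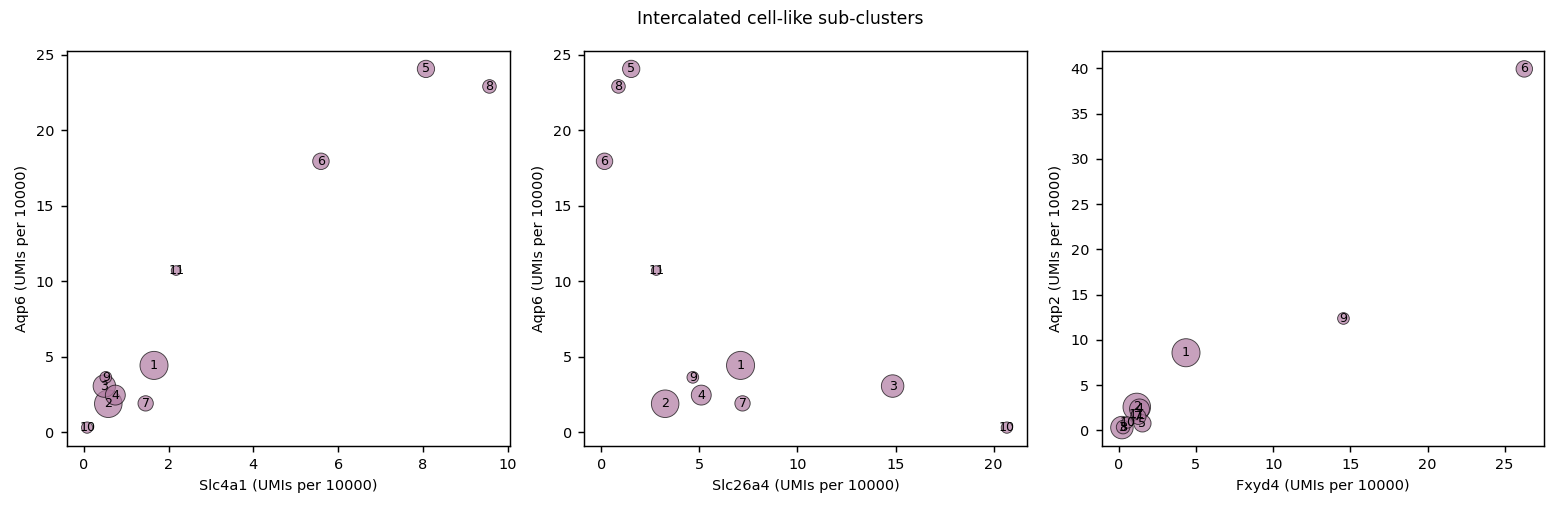
Sub-clusters of IC-like cells over all libraries: Aqp6 against Slc4a1 (left) and Slc26a4 (middle), and Aqp2 against Fxyd4 (right), all in UMIs per 10000 UMIs; each numbered circle is a sub-cluster and its area grows with the number of cells. Aqp6 was 24.1 and 22.9 in sub-clusters 5 and 8, 3.06 and 0.31 in sub-clusters 3 and 10, and 17.9 in sub-cluster 6, which held Aqp2 at 39.9.

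In PC-like cells Aqp6 was low, from 82, 54, 28, 226 and 47 UMIs in control, AKI 1, AKI 2, CKD 1 and CKD 2, or 0.18, 0.21, 0.17, 0.96 and 0.56 UMIs per 10000. Both CKD libraries lay above the other 3 over the whole class. In sub-cluster 1, however, Aqp6 was 0.19 in the control, 0.28 and 0.17 in AKI, 0.68 in CKD 1 and 0.06 in CKD 2 (3 UMIs over the 19 of its 32 cells that lay there), so CKD 2 was the lowest library there. The log2 difference between CKD and AKI was 2.12 (SE 0.30, unadjusted p = 9.8e-05), with an adjusted p of 0.280 in the edgeR test, 0.00280 with DESeq2 and 0.0147 in edgeR with only cells of at least 5000 UMIs. Without CKD 2 the difference was 2.43 (adjusted p = 1.32e-09) and without CKD 1 it was 1.55 (adjusted p = 0.0850). Slc4a1 in the same cells was 0.07, 0.07, 0.01, 0.35 and 0.10, and PC-like sub-cluster 6 (48 cells, 40 of them from CKD 1) held Aqp6 at 2.85 and Slc4a1 at 0.94. Thinned to 1000 UMIs, 4.61% of CKD 1 and 0 of 32 CKD 2 PC-like cells held an Aqp6 UMI, the latter a count that allows a share of up to 9.38%. The part of intercalated cell RNA in this difference was not tested.

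Aqp7 in the proximal tubule was the one member that passed the test. PT-like cells held 0.08 UMIs per 10000 in the control, 0.18 and 0.22 in AKI 1 and AKI 2, and 0.17 and 0.18 in CKD 1 and CKD 2, from 45 to 197 UMIs per library. All 4 AAI libraries, at 0.17 to 0.22, lay above the control. Aqp7 rose between control and AKI by 1.25 on the log2 scale (SE 0.26, edgeR, adjusted p = 0.0267), in a comparison in which 11% of 12943 genes passed, and the difference between CKD and AKI was -0.15 (SE 0.19, adjusted p = 0.764). The control is a single library that the test assumes to vary like the pairs. The log2 difference was 1.11 to 1.42 in every alternative, but the adjusted p was 0.0960 with DESeq2, 0.115 with a mitochondrial limit of 15%, 0.0600 without AKI 1 and 0.158 without AKI 2. Of control barcodes 38.7% were over the mitochondrial limit of 30%, against 11.1% to 12.7% elsewhere. Thinned to 1000 UMIs, 0.65% of control PT-like cells held an Aqp7 UMI, against 1.32% and 1.77% in AKI and 1.10% and 0.58% in CKD, too few cells to rank the libraries.

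Aqp11, the channel of the endoplasmic reticulum, was read at 0.34 UMIs per 10000 in control PT-like cells, 0.24 and 0.19 in AKI, and 0.27 and 0.29 in CKD. The control was highest and the AKI libraries lowest, as for Avpr2 in PC-like cells. The log2 difference was -0.77 between AKI and control (SE 0.20, edgeR, adjusted p = 0.0515) and 0.41 between CKD and AKI (SE 0.17, adjusted p = 0.367). In arterial and vasa recta EC-like cells Aqp11 was 0.65, 0.57, 0.74, 0.46 and 0.84 in control, AKI 1, AKI 2, CKD 1 and CKD 2, and within them sub-cluster 1, the Aqp1- and Slc14a1-rich group, held 1.33 against 0.06 in sub-cluster 7. By library sub-cluster 1 held 1.34, 1.14, 1.26, 1.37 and 1.58, with exact Poisson intervals that overlapped. Aqp11 was thus read in the same vasa recta-like cells as Aqp1. Over EC-like cells the log2 differences were 0.11 and 0.20 (adjusted p = 0.866 and 0.930).

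Over all 6 classes tested, members gave 41 tests in each comparison, which included genes carried only by free RNA in a class. Between AKI and control 1 of 41 passed and 8 had an unadjusted p under 0.05. The share of all genes that passed was 11% in PT-like, 11.2% in TAL-like, 1.05% in thin limb-like, 1.5% in PC-like, 1.11% in IC-like and 0.878% in EC-like cells, so 1 of 8 members in PT-like cells was near the background. Between CKD and AKI 0 of 41 passed the edgeR test. Of all genes 0.108% were called in PT-like, 0.0166% in TAL-like and 0% in the other 4 classes. DESeq2 called 1 member in PC-like cells (Aqp6) and 2 in IC-like cells (Aqp2 and Aqp3) there. At an unadjusted p under 0.05 members gave 8 of 41 tests between CKD and AKI. They gave 1 of 5 in thin limb-like, 2 of 7 in PC-like, 3 of 7 in IC-like and 0 of 7 in EC-like cells. All genes gave 938 of 11783, 691 of 11432, 1083 of 12188 and 538 of 12304 in these classes. In PT-like and TAL-like cells members gave 2 of 8 and 0 of 7, without an all-gene count beside them here. The shares called are at the adjusted threshold and do not measure the unadjusted counts of either comparison. Between AKI and control no all-gene count at an unadjusted p under 0.05 is given, so nothing is read from the 8 of 41. In PC-like cells the median log2 difference of the 7 members tested was -0.33 between AKI and control and 0.34 between CKD and AKI, against -0.02 and 0.01 over all genes. Both comparisons use the same AKI libraries.

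**Figure D5:**
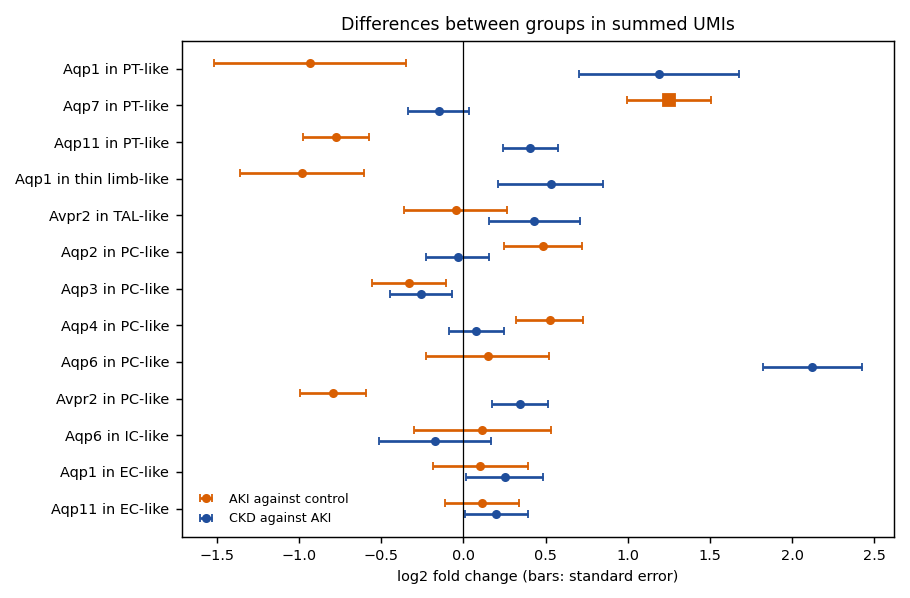
Log2 differences of members between AKI and control (orange) and between CKD and AKI (blue), from the edgeR fit, with bars of 1 SE; the square marks the one with an adjusted p under 0.05. Aqp7 in PT-like cells (1.25) passed, and Avpr2 (-0.80) and Aqp6 between CKD and AKI (2.12) in PC-like cells did not.

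The signalling partners of the receptor were read in the same principal cells. Of the list of cAMP and protein kinase A genes, 10 of 12 could be tested in PC-like cells and 0 passed the edgeR test between AKI and control (1 at an unadjusted p under 0.05), with a median log2 difference of -0.14. Gnas, the stimulatory G protein, held 7.64, 7.46, 7.23, 6.81 and 8.35 UMIs per 10000 in control, AKI 1, AKI 2, CKD 1 and CKD 2. Adcy6, the main adenylyl cyclase behind Aqp2 in principal cells, held 0.91, 0.62, 0.70, 0.59 and 0.75, and Akap7, an anchor of protein kinase A, 0.40, 0.21, 0.16, 0.11 and 0.17. For both the control was the highest library. Of transcription factors reported for Aqp2, 8 of 8 were tested and 0 passed (3 unadjusted). Among them Gata2 held 3.72, 2.16, 2.49, 1.73 and 2.43 and Gata3 3.02, 3.31, 3.21, 2.39 and 4.41. Genes of aquaporin trafficking and turnover (7 of 7 tested) and of the tonicity response (5 of 5 tested) gave 0 calls in PC-like cells in both comparisons.

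Calls in these lists lay in other classes. Elf3, an epithelial ETS factor, rose between control and AKI by 1.88 in PT-like (adjusted p = 0.00955), by 1.74 in TAL-like (adjusted p = 0.0170) and by 1.37 in IC-like cells (adjusted p = 0.0496) on the log2 scale, from 0.12, 0.25 and 0.82 UMIs per 10000 in the control to 0.43 and 0.51, 0.89 and 0.83, and 2.37 and 2.20 in the AKI libraries. In CKD the levels were 0.28 and 0.23, 0.31 and 0.70, and 0.94 and 1.38, between control and AKI in each class. Pde4d, which degrades cAMP, fell by 1.29 in PT-like (adjusted p = 0.0184) and by 1.34 in TAL-like cells (adjusted p = 0.0426), from 0.54 to 0.23 and 0.24 in the first. In TAL-like cells Avpr1a, the other renal vasopressin receptor, fell by 3.58 (adjusted p = 0.000829), from 0.37 in the control to 0.04 and 0.03 in AKI and 0.04 and 0.03 in CKD, and Adcy6 fell by 0.78 (adjusted p = 0.0352). Stub1, a ubiquitin ligase, rose by 0.77 and Prkar2b, a regulatory subunit of protein kinase A read from 0 to 39 UMIs per library, by 3.25 (adjusted p = 0.0475 for each). The TAL-like comparison called 11.2% of all genes. Summed over the 6 classes, 1 of 4 tests of other vasopressin and oxytocin receptors passed, 4 of 63 of the cAMP list (1 higher, 3 lower), 3 of 42 of transcription factors (all higher), 1 of 42 of trafficking genes (higher), 0 of 10 of urea transporters (2 unadjusted) and 0 of 27 of the tonicity response (7 unadjusted). Over all genes 4.55% of 72708 tests in the same 6 classes passed between AKI and control. This share is at the adjusted threshold and does not measure the unadjusted counts. Those have no all-gene count beside them here, and nothing is read from them. Between CKD and AKI 0 tests in these lists passed edgeR.

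Avpr1a was otherwise read in IC-like cells, at 1.45 UMIs per 10000 in the control, 1.12 and 1.04 in AKI, and 1.11 and 1.08 in CKD, a class that also held Avpr2. Of the other aquaporins, Aqp9, a channel for glycerol and other small solutes, was read in neutrophil-like cells at 0.17 to 0.52, and Aqp5, Aqp8, Aqp12 and Mip passed the filter on low counts in none of the 6 classes.

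To find genes with the most similar pattern, Pearson correlations of log2 levels were taken over 80 pairs of class and library in 17 classes, among 14783 genes. These profiles share libraries and depth and the values are descriptions. Nearest to Aqp2 were Hsd11b2 (r = 0.950), Fxyd4 (0.947) and Col26a1 (0.920), and nearest to Avpr2 were Col26a1 (0.957), Plppr1 (0.952) and Tpd52l1 (0.940). Aqp3 lay nearest to Tmem45b (0.954), Scnn1g (0.940), a subunit of the epithelial sodium channel, and Degs2 (0.935), and Aqp4 to Elf5 (0.963), Btc (0.955) and Mgat4c (0.950). Receptor and apical channel thus shared Col26a1 among their 3 nearest genes. Aqp6 lay nearest to 2610016A17Rik (0.954), Foxi1 (0.954), the master factor of intercalated cells, and Dmrt2 (0.951). Aqp7 lay nearest to Rdh16 (0.965), Cdhr2 (0.949), a protein of the brush border, and Mettl7b (0.948). Aqp1, with a thin limb and a vascular site, had lower values, Afap1l1 (0.887), Angpt2 (0.876) and Irx5 (0.861), as did Aqp11 with Gchfr (0.871), Lims2 (0.781) and Hyal2 (0.768).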

How the data were processed

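Single-cell RNA sequencing of 5 mouse kidney libraries (control, 2 AKI, 2 CKD; groups from the labels) was examined. The authors deposited UMI counts per gene and barcode; their processing notes name Cell Ranger 7.2.0, STAR and GRCm39, whereas the matrix headers of the 4 AKI and CKD libraries name Cell Ranger 5.0.0 and that of the control names no version. The deposited counts were used without the ambient RNA correction that the study's methods name. Barcodes with at least 200 genes and at most 30% mitochondrial UMIs (60043 of 72896) were kept, doublets were removed by a score against simulated doublets at an assumed rate of 0.8% per 1000 cells, and 53718 cells remained; the cell number in the study's methods is lower. Cells were clustered on 3000 variable genes without the members, other aquaporins and listed genes (40 components, Harmony over libraries, 15 neighbours, Leiden resolution 1.5, 52 clusters), and clusters of at least 50 cells were named from at least 3 detected markers. Sub-clusters used 1000 genes, 20 components and resolution 0.5, with levels per library from at least 10 cells.

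Counts were summed per library and class (at least 20 cells) and tested in edgeR 4.0.16 (R 4.3.3; quasi-likelihood, TMM, filterByExpr, Benjamini-Hochberg over all genes, threshold 0.05) on all 5 libraries. Shares of cells with a UMI were thinned to 1000 UMIs. Intervals are exact, at 95%, and cover counting error only. The members and lists were chosen with earlier results of these data known. All 8 members were described in each class; of the other lists, genes with an adjusted p under 0.05 were named (at most 5 a list), further genes of PC-like cells were picked after their values were seen, and for likeness the 3 genes with the highest correlation of log2(level + 0.1) among genes with at least 200 UMIs. Alternatives were DESeq2 1.42.0, other size factors, no filter, no library correction, resolution 1.0, a mitochondrial limit of 15%, doublets kept, shared barcodes removed, each library left out, a replicate block and cells of at least 5000 UMIs. Tested on simulated data for CKD against AKI in PC-like cells (10885 genes), edgeR recovered 190 of 200 changed genes with 12 false calls. In the real comparison 0 of 11432 genes passed. Aqp6, with a log2 difference of 2.12, had an adjusted p of 0.280 in the edgeR test there. Whether the recovery on simulated data holds for the 5 libraries was not tested. The share of true differences missed in the real comparison was not tested either. Clustering used Python 3.11.15, scikit-learn 1.9.0 and igraph 0.11.9.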

Additional observations from a re-analysis of the deposited data

How the results depend on the processing

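The control was 1 library, CKD 1 had few UMIs per tubule cell, and CKD 2 had 15 to 49 cells in each thin limb and distal class but IC-like. Counts of called genes moved with most choices. Aqp7 in PT-like cells kept its direction between AKI and control under all alternatives. Over 37 comparisons of single genes and 500 alternatives, 412 stayed on the same side of the threshold, 33 passed newly, 35 no longer passed and 20 reversed. The causes were not tested. AKI and CKD libraries with the same number were tied by nothing but that number (correlations of their deviations 0.16 in PT-like, -0.08 in thin limb-like, 0.15 in TAL-like, -0.12 in PC-like, 0.24 in IC-like and 0.22 in EC-like cells). Between CKD and AKI the replicate block called 1 member each in PC-like cells (Aqp6, adjusted p = 0.0247, and 0.0356 with crossed pairs), IC-like cells (Aqp2, 0.0444) and PT-like cells (Aqp1, 0.000572). Fits without CKD 2 rest on CKD 1 as the only CKD library, and calls of members in them are not counted here.

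Genes called between CKD and AKI numbered 14 in PT-like, 2 in TAL-like and 0 in the other classes. In PT-like cells they became 44 in cells of at least 5000 UMIs, 117 with DESeq2, 37 with doublets kept, 3 with a mitochondrial limit of 15%, 62 without library correction, 964 without the filter on low counts and 568 with the replicate block. In thin limb-like cells the same count was 61 in cells of at least 5000 UMIs, 23 with DESeq2, 10 with doublets kept and 383 without the filter. TAL-like cells gave 9 with DESeq2, 10 with doublets kept, 0 with the limit of 15%, 1 without library correction, 572 without the filter and 82 with the replicate block. PC-like cells gave 14 in cells of at least 5000 UMIs, 13 with DESeq2, 305 without the filter, 9 with the replicate block and 19 with crossed pairs. IC-like cells gave 18 with DESeq2, 632 without the filter and 36 with the replicate block, and EC-like cells 9 with DESeq2, 2 with doublets kept and 325 without the filter. At an unadjusted p under 0.05 edgeR gave 938 genes in thin limb-like, 691 in PC-like, 1083 in IC-like and 538 in EC-like cells. Leaving out each library in turn gave 0 to 642 in PT-like, 7 to 1116 in thin limb-like, 0 to 492 in TAL-like, 0 to 669 in PC-like, 0 to 1700 in IC-like and 0 to 759 in EC-like cells.

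Between AKI and control, PT-like cells gave 1424 genes, 676 without library correction and 2813 without the filter. Thin limb-like cells gave 124, and 519 in cells of at least 5000 UMIs, 364 with doublets kept, 0 without library correction and 973 without the filter. TAL-like cells gave 1347, and 618 with DESeq2, 430 with the limit of 15%, 719 without library correction and 2260 without the filter. PC-like cells gave 172, and 607 in cells of at least 5000 UMIs, 450 with doublets kept, 271 with the limit of 15%, 85 without library correction and 761 without the filter. IC-like cells gave 135, and 470 in cells of at least 5000 UMIs, 409 with DESeq2, 398 with doublets kept, 0 with the limit of 15%, 461 without library correction and 1379 without the filter. EC-like cells gave 108, and 409 in cells of at least 5000 UMIs, 343 with DESeq2, 567 without library correction and 1134 without the filter. Leaving out each library gave 177 to 2815 in PT-like, 94 to 2033 in thin limb-like, 954 to 2429 in TAL-like, 20 to 1342 in PC-like, 28 to 2504 in IC-like and 0 to 1638 in EC-like cells.

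The mean EC-like level of Aqp1 over libraries was 19.9 UMIs per 10000, 31.7 with doublets kept and 28.8 in cells of at least 5000 UMIs, and that of Aqp11 was 0.32, 0.45 and 0.40. Mean shares of cells with a UMI went from 62.3% thinned to 90.5% unthinned for Aqp2 in CNT-like cells, from 74.9% to 95.9% for Aqp3, 33.5% to 75.1% for Aqp4 and 23.2% to 81.1% for Avpr2 in PC-like cells, from 10.7% to 54.6% for Avpr2 in CNT-like, 33.0% to 51.9% for Aqp6 in IC-like, 1.08% to 10.4% for Aqp7 and 2.48% to 14.2% for Aqp11 in PT-like, and 1.98% to 11.3% for Aqp11 in EC-like cells.

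Reversed log2 differences were all of comparisons that did not pass. Leaving out each library in turn, the highest or lowest values on the side of the full comparison were, between CKD and AKI, 0.93 for Aqp1 in thin limb-like cells, -0.28 for Aqp2 and 0.25 for Aqp4 in PC-like cells, -0.80 for Aqp6 in IC-like cells and 0.60 for Aqp1 in EC-like cells, and between AKI and control 0.39 for Aqp1 in EC-like cells; the values on the other side stand among those below. Between CKD and AKI they were 0.0365 for Aqp7 in PT-like cells of at least 5000 UMIs, -0.0154 for Aqp1 in thin limb-like cells without CKD 2, -0.0668 for Aqp4 in PC-like cells without AKI 2, 0.29 for Aqp6 in IC-like cells without CKD 1, -0.0342 and -0.18 for Aqp1 in EC-like cells without AKI 2 and with doublets kept, and -0.20 for Aqp11 there with doublets kept. For Aqp2 in PC-like cells they were 0.13 without AKI 1, 0.17 without CKD 2, 0.000977 with doublets kept and 0.0545 in cells of at least 5000 UMIs. Between AKI and control they were 0.0307 without AKI 2 and 1.34 with the limit of 15% for Avpr2 in TAL-like cells, -0.0357 for Aqp6 in PC-like cells without AKI 1, -0.41 for Aqp6 and -0.0708 for Aqp2 in IC-like cells with the limit of 15%, -0.27 without AKI 1, -0.13 with doublets kept and -0.72 in cells of at least 5000 UMIs for Aqp1 in EC-like cells, and -0.56 for Aqp11 there in cells of at least 5000 UMIs.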
